A study of Solanum lycopersicum with 6 samples.

Results

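Chlorophyll-binding and photosystem genes of the tomato nucleus were examined in leaf discs treated with loliolide. They were taken as the non-control array probes whose accession is a RefSeq transcript of a gene with a symbol or synonym starting with CAB, LHC, RBCS, PSA or PSB. This rule took 24 of 43603 distinct probes, and these belong to 5 of the 1191 genes that could be named on the array. The 5 genes are CAB4 with 7 probes, CAB6A with 2, PSBP with 8, PsbQ with 2 and PSBR with 5. The reference holds 27 nuclear protein-coding genes that fit the rule by name, and the other 22 had no probe matched by accession. Among those 22 are all 4 genes of the Rubisco small subunit and the 1 nuclear PSA gene, so the small subunit of Rubisco was not analysed here. Another 121 probes carry RefSeq accessions that matched no gene of the reference, and they were not used here.

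Leaves came from 4-week-old plants of Micro-Tom, a dwarf tomato (Solanum lycopersicum) used in the laboratory, kept at 25 °C in days with 16 h light and 8 h dark. Leaf discs of 1 cm were floated for 12 h under continuous light at 25 °C. The treated group had 300 µM loliolide, a small lactone derived from carotenoids, and the control group had 0.1% methanol. Each group has 3 samples, and 6 Agilent arrays of 1 colour hold 1 sample each.

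Chlorophyll-binding (CAB, or light-harvesting) proteins hold chlorophyll and carotenoids in the thylakoid membrane and pass absorbed light energy to the reaction centres of photosystems I and II. Photosystem II uses this energy to split water at its oxygen-evolving complex, whose manganese cluster is shielded on the lumen side by the extrinsic proteins PsbO, PsbP and PsbQ, with PsbR as a small partner. The genes studied here lie in the nucleus, and transcripts of this class are abundant in green leaves and respond to light, the circadian clock, sugars and signals from the plastid.

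The tissue label, leaf, was checked against these green-tissue genes and against markers of other tissues. All 24 probes were well above background on all 6 arrays. Of 19 probes for fruit ripening genes 13 were well above background on no array and 2 on all 6, 1 each of E8 and NOR. A probe of PG2 and a probe of RIN were so on all 3 loliolide arrays but on only 1 methanol array. None of the 2 probes for flower genes and the 1 for a root gene was well above background on all 6 arrays. The summed scaled signal of the ripening probes was 0.0906 to 0.0975 with methanol and 0.107 to 0.121 with loliolide, and its part in the results was not tested. Per array, 84.5% to 87.6% of non-control spots stood well above background, and the 75th percentile of signal was 817.7 to 1117. Precision is limited by having 3 arrays per group. The labels speak of triplicate harvests and not of separate plants, so the p-values cover the spread among the harvested samples, and that spread may be technical. All methanol arrays lay on 1 slide and all loliolide arrays on another, so an effect of the slide and an effect of loliolide cannot be told apart. Levels are given as log2 signal relative to the 75th percentile of the array, so that 0 is that percentile and a step of 1 is a doubling.

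The comparison of loliolide with methanol asked whether the carotenoid metabolite altered transcripts of the photosynthetic apparatus. None of the 24 probes and none of the 5 genes passed a limma adjusted p of 0.05. Among all 37424 tested probes 0.783% passed, and counting 1 probe per gene 1.37% passed. At an unadjusted p under 0.05 the count was also 0 of 24 in limma, where 20.1% of all tested probes fell under that value. The groups overlapped for all 24 probes, while 29.5% of all tested probes had groups that did not overlap. Of the 24 probes 12 were higher and 12 lower with loliolide, with log2 differences between -0.38 and 0.30. The median difference was 0.0036 over the 24 probes and 0.061 over all tested probes. The lowest limma adjusted p was 0.529 for a probe and 0.737 for a gene.

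The antenna gene of photosystem II, CAB4 (gene 543975), encodes a chlorophyll-binding protein of the light-harvesting complex. On its brightest probe the log2 signal was 3.45, 2.80 and 3.91 on the methanol arrays of replicates 1, 2 and 3, and 4.49, 3.53 and 3.03 on the loliolide arrays. The highest and the lowest loliolide arrays thus enclosed all values but that of methanol replicate 2, and the groups overlapped. The mean was 3.39 ± 0.56 (SD, n = 3) with methanol and 3.68 ± 0.75 (SD, n = 3) with loliolide. The difference was 0.30 (SE 0.42, limma adjusted p = 0.73), with a 95% interval from -0.71 to 1.31 that still holds a 2-fold rise. The plain signal before any scaling was 23580 on loliolide replicate 1 and 6663 on loliolide replicate 3. The 75th percentiles of these arrays were 1048 and 817.7, so this gap also holds their difference in brightness. After scaling the span within loliolide was 2.76-fold on this probe. Over the 7 probes of CAB4 the differences ran from -0.082 to 0.30, with 4 higher and 3 lower. The 3 brightest probes differed by 0.30, 0.24 and 0.23, and the dimmest by -0.082.

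CAB6A (gene 544310) encodes a chlorophyll-binding protein of the photosystem I antenna. Its brighter probe read 3.85, 3.70 and 4.59 with methanol and 4.71, 4.14 and 3.47 with loliolide, in the order of replicates 1 to 3. The loliolide values reached both above and below those of methanol. The difference was 0.065 (SE 0.36, limma adjusted p = 0.939), with a 95% interval from -0.79 to 0.92. The dimmer probe read -0.21, -0.27 and 0.71 with methanol and 0.55, -0.04 and -0.88 with loliolide, a difference of -0.20 (SE 0.41). Both probes had the same arrays at the top and at the bottom within each treatment.

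**Figure D1:**
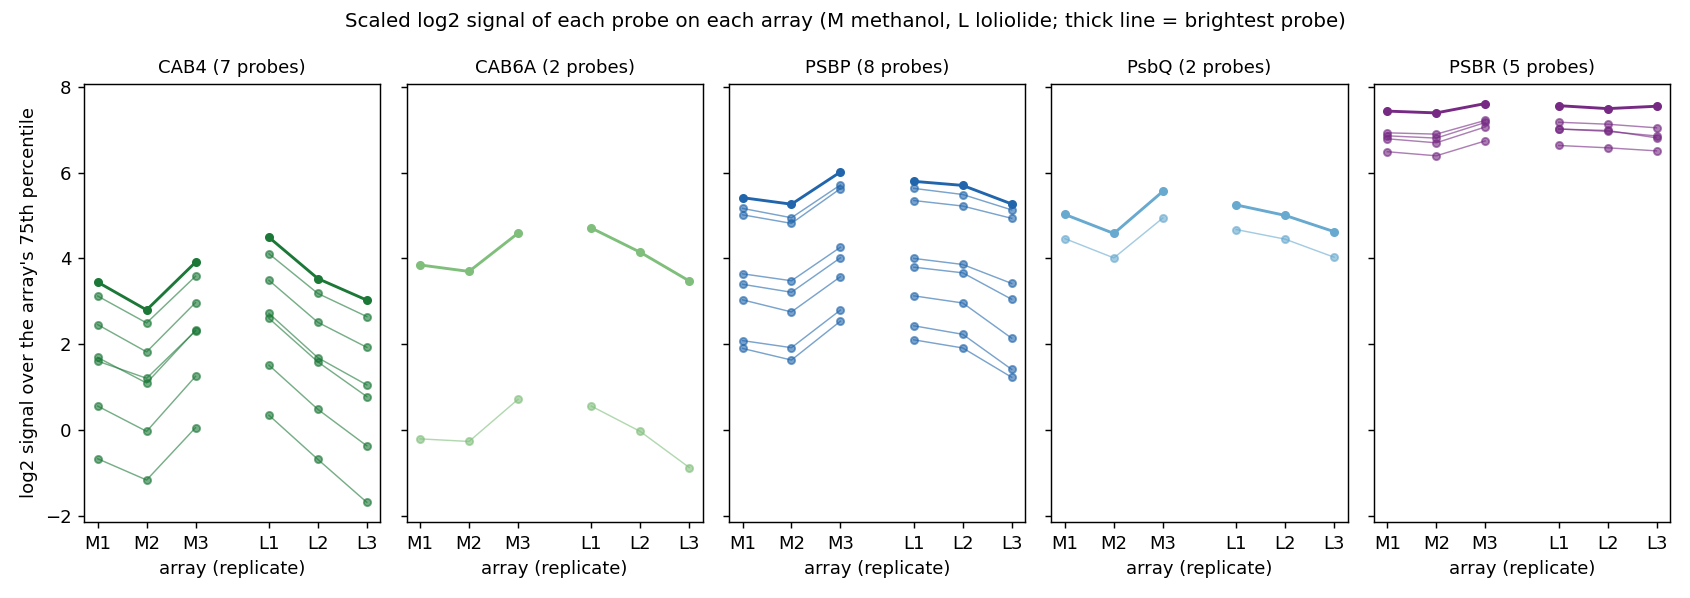
Log2 signal over the array's 75th percentile (y axis) for every probe of the 5 genes on each methanol array (M1 to M3) and loliolide array (L1 to L3). Each line joins the values of 1 probe, the thick line is the brightest probe of the gene, and the joined replicates have no order in time. Within each treatment the probes go up and down together, with M3 and L1 high, and the lines of PSBR are the flattest.

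PSBP (gene 544077) encodes an extrinsic protein of the oxygen-evolving complex that helps retain calcium and chloride at the water-splitting site. Its brightest probe read 5.42, 5.27 and 6.02 with methanol and 5.80, 5.70 and 5.27 with loliolide. Methanol replicate 3 was the highest of the 6 arrays. The difference was 0.025 (SE 0.23, limma adjusted p = 0.963), with a 95% interval from -0.53 to 0.58. The 8 probes of PSBP differed by -0.38 to 0.14, with 5 lower and 3 higher. The 3 brightest were higher by 0.025, 0.14 and 0.015, and the 3 dimmest were lower, at -0.38, -0.24 and -0.27. The most negative of these, A_96_P134362, read 3.03, 2.75 and 3.57 with methanol and 3.13, 2.96 and 2.14 with loliolide (SE 0.31, limma adjusted p = 0.529). Its low mean with loliolide came from 1 array, since replicates 1 and 2 lay within the methanol range and replicate 3 lay below it.

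PsbQ (gene 543931) encodes another extrinsic protein of the same complex. Its brighter probe read 5.03, 4.58 and 5.56 with methanol and 5.25, 5.004 and 4.63 with loliolide. All 3 loliolide values lay within the methanol range. The difference was -0.098 (SE 0.27, limma adjusted p = 0.871), with a 95% interval from -0.75 to 0.55, and the other probe differed by -0.088 (SE 0.27).

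PSBR (gene 778297) encodes a small photosystem II protein that takes part in the assembly of PsbP at the complex. Its brightest probe read 7.44, 7.40 and 7.61 with methanol and 7.56, 7.50 and 7.55 with loliolide. The values were close to each other on all 6 arrays, and the loliolide values lay within the methanol range. The difference was 0.055 (SE 0.097, limma adjusted p = 0.786), with a 95% interval from -0.18 to 0.29, or 0.885-fold to 1.22-fold. Its 5 probes differed by -0.0077 to 0.10, with 4 higher and 1 lower. They were also the brightest of the set, with 99.79% to 99.95% of all tested probes dimmer than each, and no spot on any array was saturated. Whether the spots still responded in proportion at these signals was not tested.

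**Figure D2:**
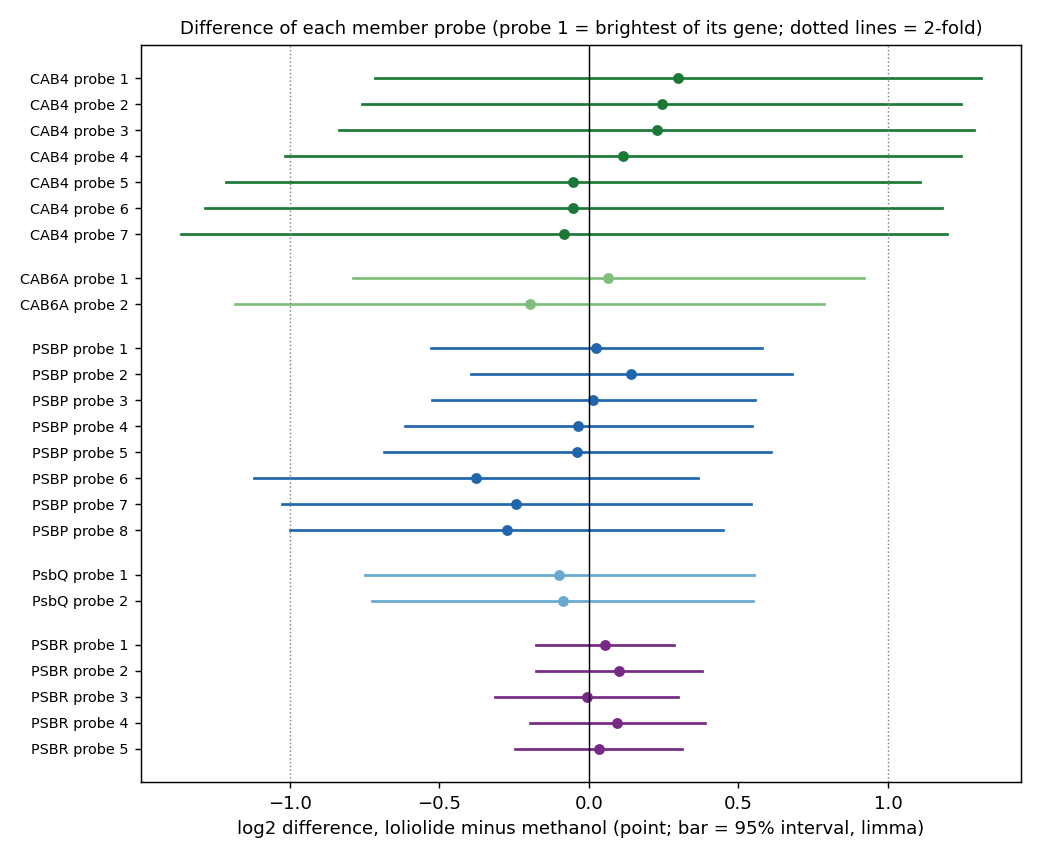
Log2 difference of loliolide minus methanol for each of the 24 probes (points) with its 95% interval from limma (bars), ordered within a gene from the brightest probe down. Every interval crosses 0, the intervals of PSBR are the shortest, and those of 10 probes reach past a 2-fold change on 1 side or both.

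For 14 of the 24 probes the 95% interval lay within a 2-fold change either way. For the other 10, which include all 7 of CAB4, a 2-fold change in at least 1 direction lay inside the interval. For the brightest probe of CAB4 a 2-fold rise lay inside the interval and a 2-fold fall outside it. The p-values do not show that CAB4 was the same in both treatments.

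The width of these intervals came from the spread between arrays of 1 treatment. The within-group SD of the log2 signal had a median of 0.44 over the 24 probes and 0.17 over all tested probes. It was 0.15 over the 3742 brightest of the tested probes, so the brightest probes of the arrays were not more variable at the median. CAB4 had SDs of 0.65 to 0.84 and CAB6A of 0.55 to 0.64. Between 96.9% and 99.2% of all tested probes had a smaller SD than these antenna probes. PSBP had 0.33 to 0.50 and PsbQ 0.40 to 0.41. PSBR stood apart from the other 4 genes with 0.086 to 0.16, below the median of all tested probes. For all 24 probes the span between the highest and lowest array within methanol, and likewise within loliolide, exceeded the difference between the treatments. The share of all tested probes for which this holds was not computed, so the count is not read as particular to these genes.

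**Figure D3:**
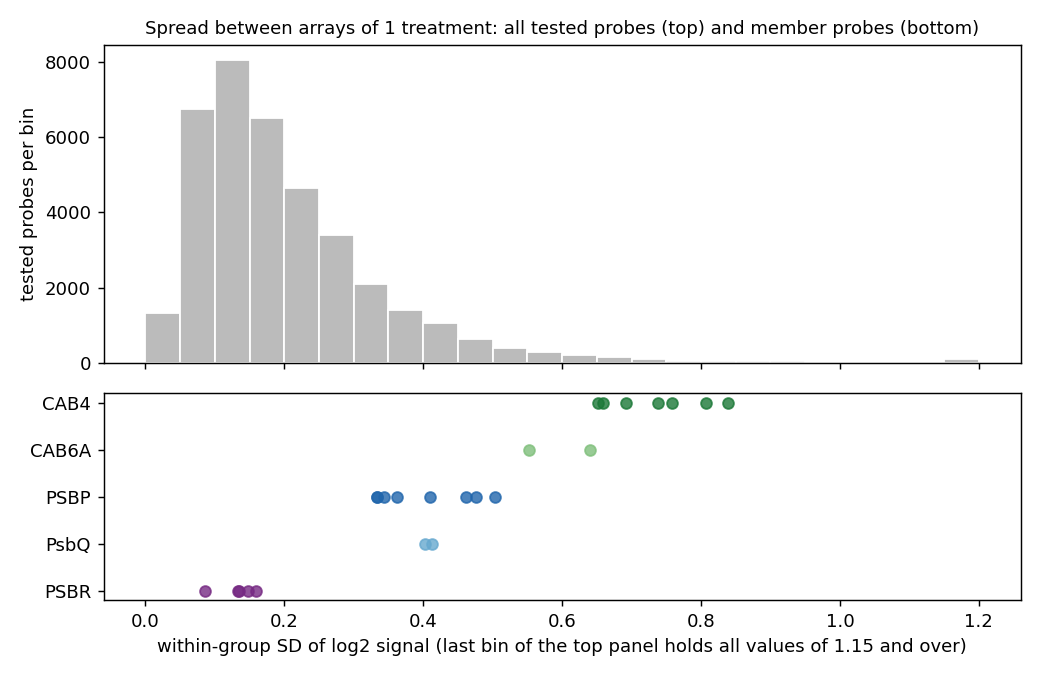
Within-group SD of log2 signal (x axis) for all tested probes as a histogram (top) and for each probe of the 5 genes as a point (bottom). The probes of CAB4 and CAB6A lie in the right tail of the histogram and those of PSBR below its median of 0.17.

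In size, the span within loliolide was 2.76-fold to 4.09-fold for the probes of CAB4 and 2.35-fold to 2.70-fold for CAB6A. For PSBP it was 1.33-fold to 2.02-fold, for PsbQ 1.54-fold to 1.56-fold and for PSBR 1.05-fold to 1.15-fold. The span within methanol was 2.13-fold to 2.44-fold for CAB4, 1.85-fold to 1.97-fold for CAB6A, 1.68-fold to 1.87-fold for PSBP, 1.91-fold to 1.97-fold for PsbQ and 1.16-fold to 1.29-fold for PSBR. CAB4 thus had the widest spans of the 5 genes in both treatments and PSBR the narrowest. CAB6A came next after CAB4 within loliolide, while within methanol its spans overlapped those of PsbQ and PSBP. Leaf discs are bulk samples, in which fewer cells of a type and less RNA per cell cannot be told apart.

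The arrays at the top and bottom were the same throughout the set. Methanol replicate 3 was the highest and methanol replicate 2 the lowest methanol array for all 24 probes. Loliolide replicate 1 was the highest loliolide array for all 24, and loliolide replicate 3 was the lowest for 23. The exception was the brightest probe of PSBR. This order in all 4 respects held for 23 of 24 probes and for 10.4% of all tested probes, a description with no test, since probes of 1 array share its RNA and several share a gene. CAB4 and the PSB genes differed in which array stood highest of the 6. It was loliolide replicate 1 for all 7 probes of CAB4 and methanol replicate 3 for all 15 PSB probes. The 2 probes of CAB6A were split, 1 with each of these arrays. Among all tested probes loliolide replicate 1 was the highest for 17.3% and methanol replicate 3 for 18.6%. The difference between CAB4 and the PSB genes was not tested.

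Markers of trichomes, the glandular hairs of the leaf surface, matched this order only in part. It held in all 4 respects for 0 of 5 tested trichome probes, beside 10.4% of all tested probes. Of 6 trichome probes 5 were well above background on all arrays, and all 5 were lowest on methanol replicate 2 and on loliolide replicate 3 within their groups. Among all tested probes 31.3% were lowest on methanol replicate 2 and 37.5% on loliolide replicate 3 within their groups. Methanol replicate 3 was their highest methanol array for 3 of 5 and loliolide replicate 1 their highest loliolide array for 1 of 5. The shares over all tested probes were 38.1% and 32.1%. The brighter probe of SSTLE1, a sesquiterpene synthase gene, read -3.50, -4.31 and -2.76 with methanol and -3.65, -3.14 and -4.16 with loliolide. The summed scaled signal of the trichome probes was 0.148 to 0.389 with methanol and 0.131 to 0.280 with loliolide. Of the senescence list 1 gene had probes, and its 5 probes summed to 59.0 to 61.8 with methanol and 60.2 to 65.6 with loliolide. Within methanol, replicate 3 was the highest array for 2 of 5 and replicate 2 the lowest for 0 of 5. Within loliolide, replicate 1 was the highest array for 3 of 5 and replicate 3 the lowest for 3 of 5. The part of these cell types and states in the values of the photosystem genes was not tested.

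The loliolide arrays also differed in quality measures. The array of loliolide replicate 3, low for nearly all probes of the set, had the lowest 75th percentile of all arrays, 817.7 against 1048 to 1117 for the other 5. The median of its E1A positive control probes, which Agilent designs for spike-in RNA, was 0.91 on the scaled log2 axis, against 0.61 and 0.48 for the other loliolide arrays and 0.30 to 0.42 for methanol. Their part in the low values of that array was not tested. Methanol replicate 3, high for all 24 probes, had a 75th percentile of 1113 and a spike-in median of 0.39, both within the range of the other methanol arrays. Probes of a gene did not fall equally on loliolide replicate 3. Relative to the mean of the other loliolide arrays, CAB4 was lower by log2 values of -0.98 on its brightest probe and -1.52 on its dimmest. PSBP ran from -0.35 to -0.92, with the 5 dimmest probes lower than the 3 brightest.

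The sign of the small differences turned with the scaling and with single arrays. Of the 24 probes 12 were lower as reported, 18 after quantile normalisation, and 24 after scaling to the spike-ins, which moved the median of all tested probes from 0.061 to -0.24. Relative to that median the median of the 24 probes was -0.057 under both percentile and spike-in scaling. It could not differ, since each of these scalings subtracts the same amount from all probes of an array. With array weights 1 of 24 was lower. Without methanol replicate 3 and without loliolide replicate 3 the count of lower probes was 2 each, and without loliolide replicate 1 it was 19. It was 20 without methanol replicate 2. No direction is therefore given for the set, and in no fit did a probe or gene of the set pass limma's adjusted threshold.

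**Figure D4:**
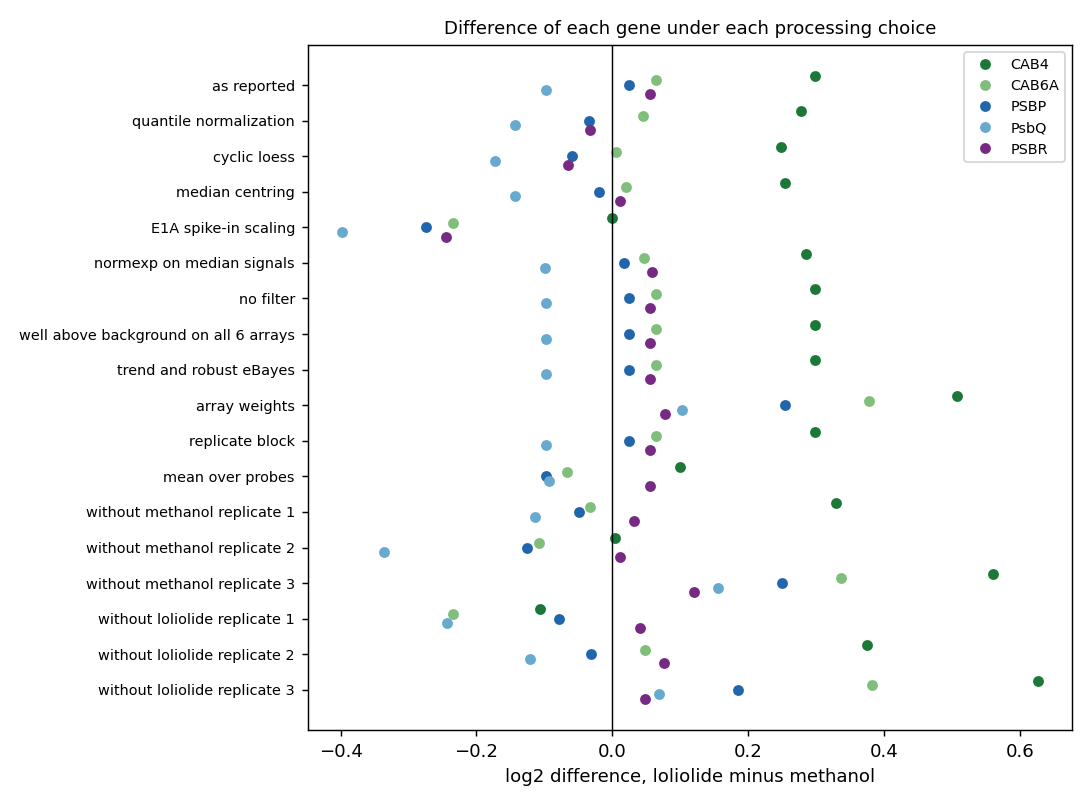
Log2 difference of loliolide minus methanol (x axis) for the brightest probe of each gene, or the mean over its probes where named, under each processing choice (y axis). The points cross 0 from 1 choice to another, and CAB4 ranges from -0.11 without loliolide replicate 1 to 0.63 without loliolide replicate 3.

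Other genes of the photosynthetic pathway were taken from lists by symbol. In the Calvin cycle and photorespiration list 4 genes were tested, and 0 rose and 0 fell, beside 1.34% of all tested genes that rose and 0.0318% that fell. Their median difference was -0.14. The carbonic anhydrase gene ca2, whose enzyme converts carbon dioxide and bicarbonate into each other, was the most variable of them. Its brightest probe read 2.46, 1.68 and 3.30 with methanol and 2.28, 2.67 and 1.28 with loliolide, a difference of -0.40 (SE 0.49, limma adjusted p = 0.690). For all 8 probes of ca2 methanol replicate 3 was the highest and loliolide replicate 3 the lowest of the 6 arrays, while loliolide replicate 1 was the highest loliolide array for none. SBPASE, which encodes the sedoheptulose bisphosphatase of the Calvin cycle, read 3.84, 3.46 and 4.35 with methanol and 4.23, 4.19 and 3.83 with loliolide. Its array order was that of 23 of the 24 photosystem probes, and its difference was 0.20 (limma adjusted p = 0.678). That order held for 1 of the 11 tested probes of this list, or 9.09%, beside 10.4% of all tested probes. The match of SBPASE is therefore not read as particular to the pathway.

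In the list of light reactions and electron carriers the 1 tested gene was PTOX, the plastid terminal oxidase, whose brightest probe differed by -0.00026 (limma adjusted p = 0.999). Its values were 1.44, 1.53 and 1.28 with methanol and 1.16, 1.45 and 1.63 with loliolide, so that methanol replicate 3 and loliolide replicate 1 were the lowest arrays of their groups for this gene. In that list the symbol FNR also took DFR, a gene of anthocyanin synthesis, which was not well above background on any array. For chlorophyll synthesis and breakdown the 1 tested gene was GSA-AT, which makes the precursor 5-aminolevulinate, with a difference of 0.092 on its brightest probe (limma adjusted p = 0.678) and of -0.34 and -0.31 on the other probes. In the list of light signalling and plastid development 11 genes were tested, 0 rose and 0 fell, and 7 were higher and 4 lower with a median of 0.058. They included HY5, a transcription factor of light signalling, at -0.20 (limma adjusted p = 0.351), and GLK1, a transcription factor that promotes chloroplast development, at 0.095 (limma adjusted p = 0.698). The largest difference of the list was that of DCL, a plastid development gene, at -0.33 (limma adjusted p = 0.256). Its loliolide values all lay below those of methanol, where 29.5% of all tested probes had groups that did not overlap.

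Of 27 probes that the authors' deposited table gives as responsive to loliolide, 0 belong to the 5 photosystem genes. The table holds 0.0619% of all probes of the array, so a count of 0 among 24 probes says nothing particular about these genes.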

How the data were processed

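Per the labels' protocols, cyanine-3 label was put on 500 ng of RNA per sample. The deposited scanner files give each spot's intensity after background subtraction and detrending in Agilent Feature Extraction, version 11.5.1.1 per the file headers and 9.1 per the submitters' processing notes. The authors also deposited log2 ratios for 27 selected probes. These equal, but for a constant, the unscaled log2 difference between the loliolide and methanol arrays of the same number. Apart from that check, only which probes are listed was used here.

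Each array's processed signals were divided by their 75th percentile over non-control spots and put on a log2 scale. Outlier spots, 0 to 5 per array, were left out, and repeated spots of a probe were averaged. Tests covered the 37424 probes that stood well above background throughout either group, and left out 6179. The groups were compared by limma 3.58.1 (lmFit, eBayes) under R 4.3.3, fitted and Benjamini-Hochberg adjusted over all tested probes at a threshold of 0.05, and again over 28300 genes with the brightest probe for each. Unnamed accessions counted as 1 gene each. Adjusted p-values printed for CAB and PSB probes are over all probes, and those for genes of the other lists are over genes. The code was tested on simulated data. Deviations from the group mean correlated at -0.16, -0.14 and -0.46 between arrays with the same number, so the numbers were not taken to pair samples. The authors' ratios do set arrays of the same number against each other, and the fit with the replicate block takes that pairing.

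RefSeq's gene table for assembly SLM_r2.1 was searched by accession, which named 2576 probes and left 41027 unnamed. The files name no genome build, so no coordinates are given. Probe sequences were not used here, and whether a CAB probe also binds transcripts of related CAB genes was not tested. All 5 genes are named, with array values for the brightest probe of each. The members, lists and rules were chosen with earlier results of these data known, and the genes named from the other lists were picked after their values were seen.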

Additional observations from a re-analysis of the deposited data

How the results depend on the processing

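The 5 genes were refitted under 17 other settings each, which gave 85 differences: 63 kept their sign, 22 reversed and none passed limma's adjusted threshold (lowest limma adjusted p = 0.359). No filter, the filter asking for all 6 arrays, trend and robust eBayes, and the replicate block leave each difference unchanged by construction. Their kept signs are among the 63 and say nothing about stability of direction. The reversed values were -0.035 for PSBP and -0.033 for PSBR with quantile normalisation, -0.060 and -0.065 with cyclic loess, and -0.019 for PSBP with median centring. With spike-in scaling they were -0.0013 for CAB4, -0.27 for PSBP, -0.23 for CAB6A and -0.24 for PSBR, which follows the shift of all probes by that scaling. With array weights PsbQ was at 0.10, and with a mean of each gene's probes PSBP was at -0.098 and CAB6A at -0.066. Without each array in turn CAB4 ranged from -0.11 to 0.63, PSBP from -0.13 to 0.25, CAB6A from -0.24 to 0.38, PsbQ from -0.34 to 0.15 and PSBR from 0.012 to 0.12. The median over the 5 genes, 0.055 as reported, ranged from -0.11 to 0.25 in those fits. The count of changed probes and genes of the set was 0 in every fit, the replicate block included. Over all probes 293 changed as reported. The count was 107 with quantile normalisation, 102 with cyclic loess, 191 with median centring, 65 with spike-in scaling, 95 with normexp on median signals, 190 with the filter asking for all 6 arrays, 159 with trend and robust eBayes, 2532 with array weights, 0 with the replicate block (5195 at an unadjusted p under 0.05 in limma), and 0 to 104 without each array in turn. It was 0 without loliolide replicate 1 (5853 at an unadjusted p under 0.05 in limma) and without loliolide replicate 2 (7425). The cause was not tested for these shifts. The offset of 50 in normexp shrinks differences of dim probes by construction. The slide could not be fitted, since each holds 1 group.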
